A study of Mus musculus with 10 samples.

Results

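The genes examined here make, sense and remove retinoic acid: Aldh1a2, Dhrs3, Cyp26a1, Cyp26b1, Cyp26c1, Crabp1, Crabp2, Rara, Rarb and Rarg. The assay was ATAC-seq, which tags open chromatin with a transposase, and a region belonged to a gene when that gene's span was the nearest protein-coding one within 50 kb of the region's centre. By this rule 188 of 246799 regions belonged to the 10 genes, of which 136 lay inside the gene spans and 52 outside. A gene's level is the sum over its regions in CPM (library-scaled counts), and describes open chromatin near the gene, not its expression. The farthest region the rule took in lay 38.6 kb from Cyp26a1 and had a mean of 6.43 CPM, and the nearest one it left out lay 54 kb from the same gene and had 0.768 CPM.

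The cells were wild-type (WT) ES-Bruce4, a C57BL/6 mouse embryonic stem cell line, grown in N2B27 medium with 10 ng/ml bFgf from the start and with 5 µM CHIR99021, an activator of the Wnt pathway, from day 2. Libraries were made on days 2, 3, 6 and 7, and on day 7 from cells that had received 50 ng/ml human Gdf11, a TGF-beta family ligand, for 24 h. All groups share the line, bFgf and the feeder layer of embryo fibroblasts from which the stem cells were taken. Each of the 5 groups has 2 libraries, and nothing says that they are separate cultures. The p-values rest on the spread between libraries of a group, pooled over the 5 groups and moderated across all features. That spread may be technical. The B27 supplement is listed with or without vitamin A, and the labels do not say which of them a library had. This is a limit for genes of this pathway, because vitamin A is the precursor of retinoic acid. The labels call the day 2 cells epiblast stem cells and all later ones neuromesodermal progenitors, the caudal cells that give rise to spinal cord and paraxial mesoderm. Of 9 neuromesodermal progenitor markers 6 rose and 0 fell from day 2 to day 3, and of 8 pluripotency and epiblast markers 5 fell and 0 rose. Over all genes tested 12.2% rose and 10.4% fell at that step. Library totals ran from 7150334 to 12335735 counts, with 9.25% to 13.42% of them mitochondrial.

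Retinoic acid is made from retinol in steps that end with retinaldehyde dehydrogenases such as Aldh1a2, and Dhrs3 works against this by returning retinaldehyde to retinol. Crabp1 and Crabp2 bind retinoic acid in the cytoplasm, the Cyp26 enzymes degrade it, and in the nucleus it binds the receptors Rara, Rarb and Rarg, which sit on DNA together with retinoid X receptors. In the embryo Cyp26a1 clears retinoic acid from the tail bud, while Aldh1a2 in the somites supplies it to the trunk. Rarb and Cyp26a1 are themselves classic targets of the pathway, through receptor sites in their promoters.

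Those sites are shown first because they lie in the 2 promoter regions described below. The DR5 site, a pair of half-sites in direct repeat with 5 bases between them, was searched on both strands by the name DR5 in 32851 RefSeq promoter windows (GRCm38.p6, the assembly of build mm10) that run from 250 bases before to 50 bases after a listed start. It was found in 32 of them, 0.0974%. Of the 10 genes 9 had such windows, 15 in all, and 2 windows held the repeat, those of Rarb and Cyp26a1. Repeats with 2 and with 1 base between the half-sites (DR2 and DR1) were found in 0.268% and 0.222% of all windows and in 0 of the 15. The Rarb site spans chr14:16575513-16575529 on the minus strand, from 53 to 37 bases before the listed start. The Cyp26a1 site spans chr19:37697776-37697792, from 32 to 16 bases before the listed start, and reads as a repeat on the minus strand while the gene lies on the plus strand. Read 5′ to 3′ with the half-sites in capitals, they are:
Rarb DR5 site: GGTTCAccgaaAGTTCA
Cyp26a1 DR5 site: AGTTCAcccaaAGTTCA
Counted from the 5′ end, with the Rarb base first, they differ at 2 of 17 bases, G1A and G9C. The 250 bases before the Rarb start, at chr14:16575477-16575726 (mm10, minus strand, from RefSeq), show the site in its surroundings, with the whole repeat in capitals:
Rarb promoter: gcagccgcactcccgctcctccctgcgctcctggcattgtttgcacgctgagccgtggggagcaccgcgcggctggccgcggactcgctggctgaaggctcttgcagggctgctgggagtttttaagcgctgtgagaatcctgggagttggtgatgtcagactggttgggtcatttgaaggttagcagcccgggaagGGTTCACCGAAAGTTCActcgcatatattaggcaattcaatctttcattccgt
A match describes letters in a window and does not show that a receptor is bound there.

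Across the time course the 10 genes did not move as a block. From day 2 to day 3 Cyp26a1 and Crabp1 rose and Cyp26c1 fell, so 3 of 10 genes changed, against 22.6% of all 18968 genes tested (12.2% higher and 10.4% lower). From day 3 to day 6 Rarb and Crabp1 rose and Rarg fell, again 3 of 10, against 20.3% of all genes (9.45% higher and 10.8% lower). Between day 6 and day 7 Aldh1a2, Crabp1, Crabp2, Rara and Rarb rose and 0 fell, which is 5 of 10, against 4.27% of all genes called (3.58% higher and 0.68% lower). Over the same step 4 of 7 spinal cord neural progenitor markers rose and 0 fell (2 without day 7 replicate 2), with a summed level of 834 to 884 CPM on day 6 and 1110 to 1190 on day 7, and their part in the rises was not tested. With Gdf11 on day 7, compared with day 7 alone, 8 of 10 were lower and 0 higher, against 13.3% of all genes called (11.2% lower and 2.07% higher). The test was edgeR's quasi-likelihood test over all genes, with Benjamini-Hochberg adjusted p under 0.05 as the threshold. The median log2 change of the 10 genes in these 4 comparisons was 0.12, 0.25, 0.34 and -0.42, beside 0.002, -0.0186, 0.0545 and -0.0987 over all genes.

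**Figure D1:**
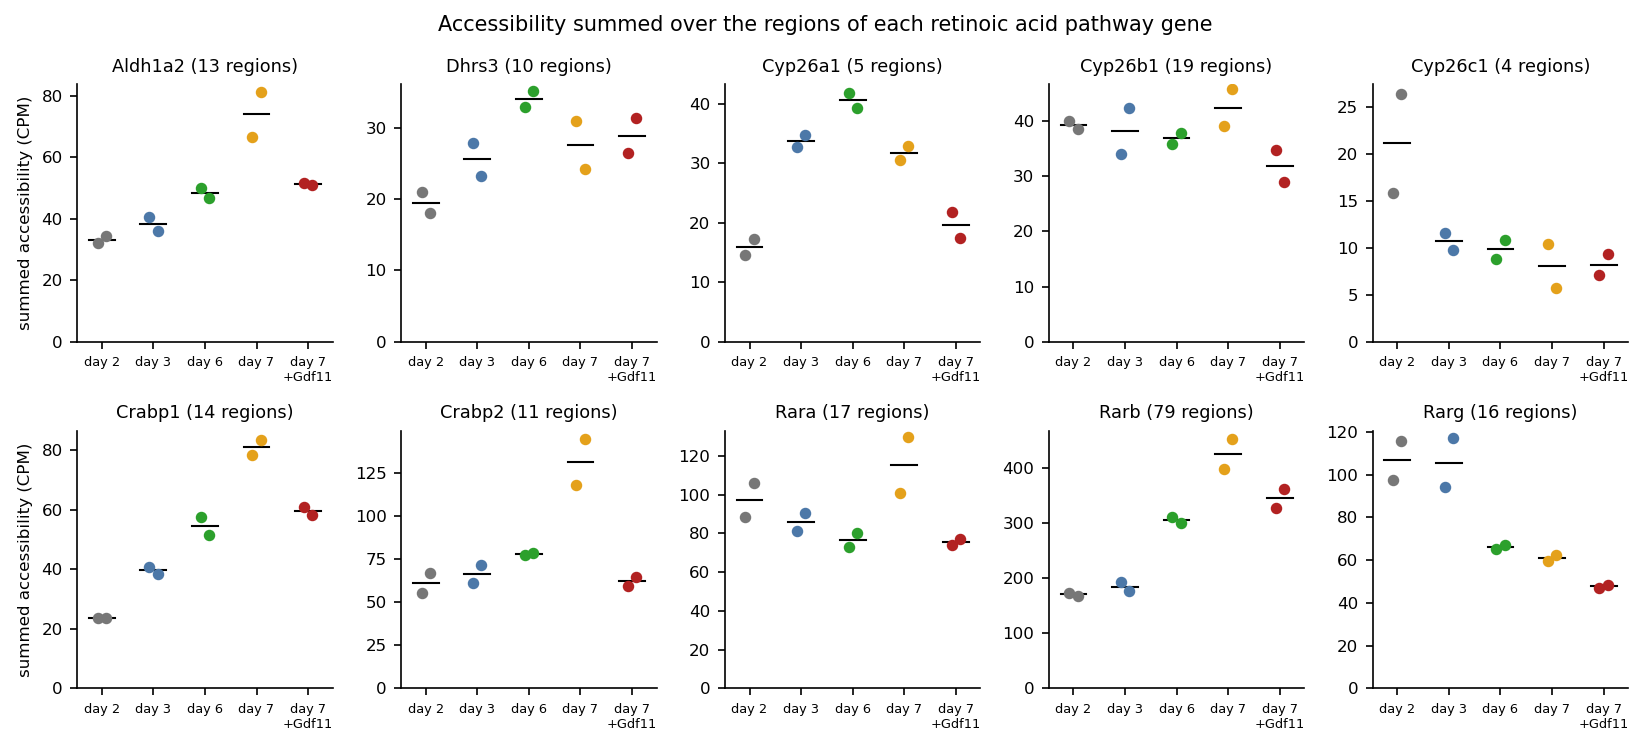
Accessibility summed over the regions of each of the 10 genes, in CPM on an axis that starts at 0, by group; each point is a library and each bar the mean of 2. Crabp2, Rara and Rarb stand highest on day 7, while Rarg runs from 107 CPM on day 2 to 47.8 with Gdf11.

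Aldh1a2, which makes retinoic acid, lies at chr9:71215789-71296243 and has 13 regions. Its level was 32.2 and 34.3 CPM on day 2, 40.6 and 36.1 on day 3, 50.0 and 46.8 on day 6, 66.7 and 81.2 on day 7, and 51.7 and 51.1 with Gdf11. The groups rose in time order without overlap, and the Gdf11 libraries lay between day 6 and day 7. The step from day 6 to day 7 was a log2 change of 0.60 ± 0.12 (SE; adjusted p = 0.00189), and the difference with Gdf11 was -0.52 ± 0.12 (adjusted p = 0.00367), both by edgeR. Both were lost without day 7 replicate 2, at adjusted p = 0.0945 each. The earlier steps, 0.22 ± 0.13 and 0.33 ± 0.13, did not pass.

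The sum hides regions that went opposite ways. A region 1.83 kb after the Aldh1a2 start, inside the gene span at chr9:71217250-71217985, had 0.418 and 1.05 CPM on day 2, 10.0 and 5.92 on day 3, 18.5 and 15.3 on day 6, 28.0 and 35.2 on day 7, and 17.3 and 16.8 with Gdf11. It rose at each step, first by 3.53 ± 0.38 on the log2 scale (adjusted p = 1.11e-10), then by 1.05 ± 0.23 and 0.88 ± 0.21, and was lower with Gdf11 by a log2 change of -0.88 ± 0.21 (adjusted p = 0.00595). Without day 7 replicate 2 the last 2 calls were lost (0.286 and 0.145), the rise at day 7 also without day 6 replicate 2 (0.208). It made up 57.4% of the gene's change from day 6 to day 7 and 64.6% of the difference with Gdf11. A region 26.0 kb after the start (chr9:71241332-71242241) also opened, from a mean of 0.654 CPM on day 2 to 19.4 on day 7. Between them, 11.8 kb after the start, chr9:71227191-71227896 fell from day 3 to day 6 by 1.22 ± 0.31 (adjusted p = 0.00341). The region at the promoter itself, chr9:71215594-71216016, was called in 0 of the comparisons and stayed between 4.41 and 8.37 CPM in the 10 libraries.

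Dhrs3, which sends retinaldehyde back to retinol, lies at chr4:144892534-144928209, and its 10 regions also lie inside the longer gene Vps13d. Levels were 21.0 and 18.0 CPM on day 2, 27.9 and 23.2 on day 3, 32.9 and 35.2 on day 6, 31.0 and 24.2 on day 7, and 26.4 and 31.3 with Gdf11. Day 2 was lowest and day 6 highest, and day 3, day 7 and the Gdf11 group overlapped. None of the 5 comparisons passed. The difference between the Gdf11 group and day 7 was 0.05 ± 0.16 on the log2 scale. Most of the level came from the region at the start, chr4:144892537-144892896, with 11.9 and 12.0 CPM on day 2 and 24.1 and 23.4 on day 6.

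The 3 degrading enzymes followed different courses. Cyp26a1 (chr19:37697738-37701536, 5 regions) had 14.6 and 17.3 CPM on day 2, 32.8 and 34.8 on day 3, 41.9 and 39.3 on day 6, 30.5 and 33.0 on day 7, and 21.9 and 17.5 with Gdf11. It was lowest on day 2 and highest on day 6, with day 3 and day 7 overlapping. It rose from day 2 to day 3 by 1.09 ± 0.16 on the log2 scale (adjusted p = 4.05e-06), and with Gdf11 it was lower than on day 7 by a log2 change of -0.68 ± 0.15 (adjusted p = 0.00266) and than on day 6 by -1.04 ± 0.15 (adjusted p = 7e-05). With regions limited to 10 kb of a gene these 3 calls were lost, at log2 changes of -0.04, -0.15 and -0.54 (adjusted p = 0.928, 0.723 and 0.281), and inside the gene span the difference from day 7 turned to 1.15.

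The rise at day 3 was that of 2 distant regions, while the promoter region had means of 5.44 CPM on day 2 and 5.48 on day 3. The region 33.4 kb after the Cyp26a1 start, chr19:37730842-37731524, had 1.46 and 1.70 CPM on day 2, 12.6 and 7.79 on day 3, 17.7 and 13.7 on day 6, 14.4 and 16.1 on day 7, and 6.84 and 7.10 with Gdf11. The other, 42.3 kb after the start at chr19:37739906-37740405, had 0.627 and 1.44, 8.92 and 12.0, 12.5 and 9.58, 5.40 and 6.92, and 3.46 and 3.55 CPM in the same order. They rose at day 3 by 2.72 ± 0.32 and 3.36 ± 0.38 on the log2 scale (adjusted p = 2.99e-09 and 7.04e-10). The region over the DR5 site, chr19:37697612-37698054, had 4.6 and 6.28 CPM on day 2, 4.76 and 6.21 on day 3, 5.43 and 7.66 on day 6, 2.25 and 1.33 on day 7, and 4.81 and 3.44 with Gdf11. It fell from day 6 to day 7 by 1.78 ± 0.37 (adjusted p = 0.00362), the step at which 5 other genes of the pathway rose, and the call was lost without day 6 replicate 2 (0.121) or day 7 replicate 2 (0.147). Its mean went from 6.55 to 1.79 CPM at that step, and those of the 2 distant regions from 15.7 to 15.2 and from 11 to 6.16. With Gdf11 its 2 libraries lay above both day 7 libraries, a difference that did not pass the threshold.

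Cyp26b1 (chr6:84571414-84593908, 19 regions) stayed within the narrowest range of the 10 genes, 1.33-fold between its lowest and highest group means. Its libraries had 40.1 and 38.6 CPM on day 2, 34.1 and 42.4 on day 3, 35.9 and 37.9 on day 6, 39.1 and 45.8 on day 7, and 34.7 and 29.0 with Gdf11. All groups but the Gdf11 one overlapped a neighbour in the order. The difference of the Gdf11 group from day 7, -0.40 ± 0.14 on the log2 scale, only just passed (adjusted p = 0.0475), and did not pass in DESeq2 (0.0883) or without either day 7 library, and 0 of its regions passed alone. Cyp26c1 (chr19:37685112-37693320, 4 regions), the neighbour of Cyp26a1, had 15.9 and 26.4 CPM on day 2, 11.6 and 9.81 on day 3, 8.79 and 10.9 on day 6, 10.4 and 5.74 on day 7, and 7.09 and 9.36 with Gdf11. Day 2 stood above all later groups, which overlapped. The fall at day 3, by 0.95 ± 0.24 (adjusted p = 0.0035), was lost without day 2 replicate 2, where the change was -0.60 (adjusted p = 0.126).

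The genes for both binding proteins were most accessible on day 7. Crabp1 (chr9:54764748-54773110, 14 regions) had 23.5 and 23.7 CPM on day 2, 40.9 and 38.4 on day 3, 57.6 and 51.4 on day 6, 78.5 and 83.5 on day 7, and 61.0 and 58.2 with Gdf11. The groups did not overlap, and the range of 3.43-fold between group means was the widest of the 10 genes. It rose at each step, by 0.75 ± 0.13, 0.46 ± 0.12 and 0.56 ± 0.11 on the log2 scale (adjusted p = 5.1e-05, 0.00478 and 0.00198), and was lower with Gdf11 by a log2 change of -0.44 ± 0.11 (adjusted p = 0.00833). The Gdf11 difference was lost without day 7 replicate 2 (adjusted p = 0.0697), the rise at day 6 without day 6 replicate 1 (0.0913), and the rise at day 7 without day 6 replicate 2 (0.0527). With a 10 kb window none of the 3 rises passed (0.23, 0.04 and 0.46, adjusted p = 0.456, 0.908 and 0.205), nor did they inside the span (0.20, -0.21 and 0.14, adjusted p = 0.605, 0.624 and 0.843), where the Gdf11 difference was -0.49 (0.238). A region 12.0 kb before the start, chr9:54752377-54753214, had 3.14 CPM in both day 2 libraries, 16.1 and 13.9 on day 3, 19.7 and 18.2 on day 6, 24.1 and 23.6 on day 7, and 12.6 and 10.7 with Gdf11. It made up 73.6% of the gene's rise at day 3 and 57.1% of its difference with Gdf11. Another region, 45.5 kb after the start at chr9:54809997-54810527, did not share the lower level with Gdf11. It had 1.92 and 1.64 CPM on day 6, 4.59 and 4.86 on day 7 and 5.40 and 9.36 with Gdf11. With Gdf11 it was higher than on day 6 by 2.02 ± 0.42 (edgeR adjusted p = 0.00203), a call lost without Gdf11 replicate 2, at 1.56. Against day 7, 0 of the Crabp1 regions were called higher with Gdf11. The region at the Crabp1 promoter was called in 0 comparisons.

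Crabp2 (chr3:87948693-87953372, 11 regions), whose protein hands retinoic acid to the receptors, differed most with Gdf11. Its level was 55.1 and 66.9 CPM on day 2, 61.2 and 71.9 on day 3, 77.3 and 78.8 on day 6, 118 and 145 on day 7, and 59.7 and 64.6 with Gdf11. The Gdf11 libraries overlapped those of days 2 and 3 and lay under both day 6 libraries. The rise at day 7 was 0.75 ± 0.11 on the log2 scale (adjusted p = 3.46e-05), and the Gdf11 difference was -1.08 ± 0.11 (adjusted p = 2.3e-08). Of its 11 regions 4 were lower with Gdf11, against 2.65% of all 173175 regions tested, and these 4 made up 84.6% of the difference. The one that moved most, chr3:87958046-87958586, had 6.06 and 5.75 CPM on day 2, 10.5 and 12.0 on day 3, 19.4 and 15.5 on day 6, 33.5 and 41.7 on day 7, and 10.9 and 11.4 with Gdf11, a difference of -1.75 ± 0.20 (adjusted p = 1.78e-08). Its neighbour chr3:87958991-87959406 had 5.75 and 6.98 CPM on day 6, 15.3 and 19.9 on day 7 and 6.16 and 2.37 with Gdf11. Both lie outside the gene span, 4.94 and 5.83 kb away, and the next gene, 12.8 and 11.9 kb away, is Nes, the neural progenitor gene nestin. Distance alone gave them to Crabp2. Another of the 4, chr3:87960532-87961190, had the highest mean, with 33.7 and 39.5 CPM on day 7 and 23.4 and 24.8 with Gdf11. Its call was lost with library size scaling (-0.44, edgeR adjusted p = 0.117). It was also lost without day 7 replicate 2 (-0.51), Gdf11 replicate 1 (-0.58) or Gdf11 replicate 2 (-0.68). Inside the gene span only, the rise of Crabp2 at day 7 was 0.39 (adjusted p = 0.532) and its Gdf11 difference -0.69 (adjusted p = 0.123), and neither passed.

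**Figure D2:**
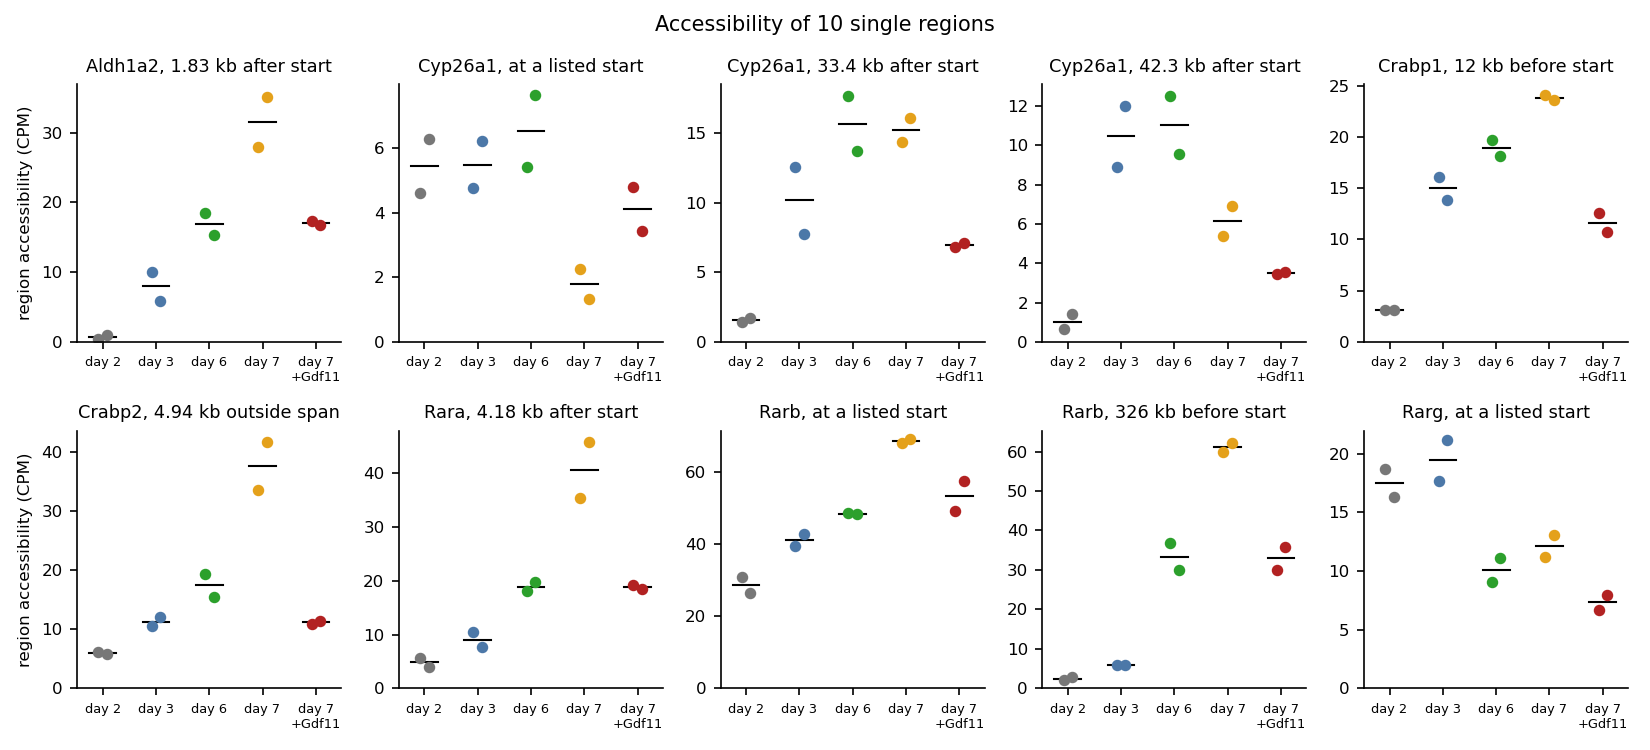
Accessibility of 10 single regions in CPM, each on its own axis from 0, by group; points are libraries and bars are means of 2. The regions of Aldh1a2, Crabp2, Rara and Rarb away from the start rise to day 7 and are lower with Gdf11, while the Cyp26a1 region at the start is lowest on day 7.

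The 3 receptor genes parted after day 3. Rara (chr11:98927800-98974942, 17 regions) had 88.3 and 106 CPM on day 2, 81.2 and 90.5 on day 3, 73.0 and 80.3 on day 6, 101 and 130.0 on day 7, and 74.0 and 77.0 with Gdf11. Day 7 was highest by its mean, though it overlapped day 2, and the Gdf11 group overlapped day 6. The day 7 rise was 0.58 ± 0.11 on the log2 scale (adjusted p = 0.000944, and 0.0945 without day 7 replicate 2) and the Gdf11 difference was -0.60 ± 0.11 (adjusted p = 0.000259). A region inside the span, 4.18 kb after a listed start at chr11:98968650-98969446, had 5.64 and 4.05 CPM on day 2, 10.5 and 7.65 on day 3, 18.1 and 19.7 on day 6, 35.4 and 45.8 on day 7, and 19.2 and 18.5 with Gdf11. It made up 56.6% of the rise and 55.0% of the Gdf11 difference. Closer to the same start, chr11:98963761-98964061 and chr11:98964509-98964779 fell from day 3 to day 6, by 1.5 ± 0.31 and 1.38 ± 0.34 (adjusted p = 0.000328 and 0.00252). Without day 6 replicate 1 these 2 calls were lost (0.0829 and 0.158), the latter also without day 3 replicate 1 (0.161). A further 3 regions inside both Rara and the predicted gene Gm46294 went to the latter as the smaller span, and counting them for Rara changed 0 of the calls of the 10 genes.

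Rarb (chr14:16430839-17082331) has by far the longest span and 79 regions, so its sum is not comparable in level with the others. It had 173 and 168 CPM on day 2, 192 and 176 on day 3, 311 and 300 on day 6, 398 and 452 on day 7, and 327 and 361 with Gdf11. The groups did not overlap. It rose by 0.73 ± 0.08 on the log2 scale from day 3 to day 6 (adjusted p = 2.35e-08) and by 0.47 ± 0.08 to day 7 (adjusted p = 0.000161). The Gdf11 difference was -0.30 ± 0.08 (adjusted p = 0.00863), and was lost without day 7 replicate 2 (0.154) or without Gdf11 replicate 1 (0.0932).

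From day 3 to day 6 the 16 called regions held 79.6% of the change in the sum. At day 7 the 3 called regions held 42.8% of the rise, and the rest lay in regions that did not pass alone. The region over the start and the DR5 site, chr14:16575119-16575902, had 30.9 and 26.5 CPM on day 2, 39.4 and 42.6 on day 3, 48.4 and 48.2 on day 6, 67.8 and 69.1 on day 7, and 49.0 and 57.3 with Gdf11. It was open from day 2, and its rise at day 3, 0.51 ± 0.15 (adjusted p = 0.0187), was its only step to pass in edgeR's fit of all libraries, and did not pass in DESeq2 (0.0631) or without either day 3 library or day 2 replicate 2, nor with the 2 groups fitted alone (0.0521). Its rise at day 7 did pass in DESeq2, at 0.52 (adjusted p = 0.0377), and with the 2 groups fitted alone (0.00845). Regions far upstream of that start, inside the longer gene span, were low on day 2 and opened later. At 158 kb (chr14:16733242-16734199) the values were 3.66 and 5.23 CPM on day 2, 14.4 and 9.81 on day 3, 55.3 and 48.6 on day 6, 68.3 and 82.3 on day 7, and 49.5 and 50.8 with Gdf11. At 326 kb (chr14:16901616-16902272) they were 2.09 and 2.88, 5.95 and 5.92, 36.7 and 30.0, 60.0 and 62.2, and 30.1 and 35.8 CPM. From day 3 to day 6 these regions rose by 2.07 ± 0.18 and 2.49 ± 0.20 on the log2 scale (adjusted p = 2.14e-13 and 2.89e-14), and the region at 267 kb (chr14:16841612-16842388) by 2.51 ± 0.27 (adjusted p = 2.91e-10). With Gdf11 the 3 were lower than on day 7 by log2 changes of -0.58 ± 0.16, -0.89 ± 0.17 and -0.82 ± 0.22. A region 7.93 kb outside the span (chr14:17089926-17090607) was lower too, by -1.31 ± 0.24 (adjusted p = 0.000189).

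Other Rarb regions went against the sum. At the far end of the span, 141 kb after the start and 4.07 kb from the gene Top2b, chr14:16434470-16435234 was the most open Rarb region on day 2 with 55.0 and 46.5 CPM, and had 21.6 and 16.5 on day 3 and 12.9 and 10.4 on day 6. It fell by 1.4 ± 0.18 at day 3 (adjusted p = 3.55e-08). Of the 56 Rarb regions tested, 5 were lower and 2 higher with Gdf11 than on day 7, against 2.65% and 1.09% of all regions. The higher ones were chr14:16803581-16804027, with 0.900 and 0.589 CPM on day 7 and 3.21 and 2.80 with Gdf11, and chr14:16935151-16935329, with 0.270 and 0.295 against 2.36 and 3.77, which rest on few counts. Both calls were lost without either day 7 library.

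**Figure D3:**
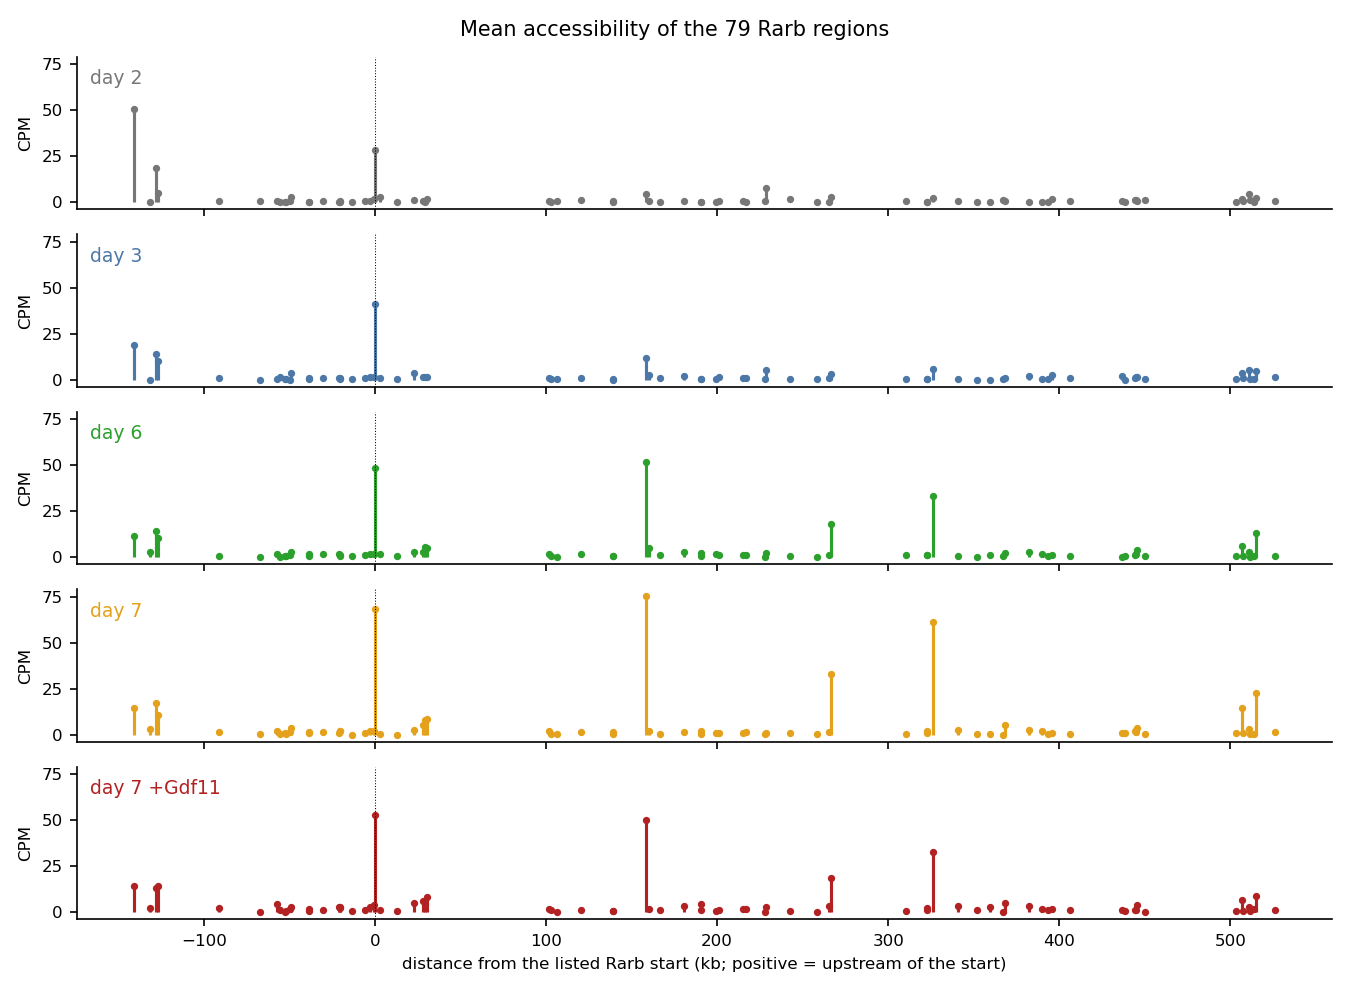
Mean accessibility (CPM) of the 79 Rarb regions against distance from the listed start in kb, 1 panel per group; positive distances lie upstream. The peaks at 158, 267 and 326 kb are low on day 2 (means of 4.44, 2.71 and 2.48 CPM) and tall from day 6. The region 141 kb on the other side is tallest on day 2.

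Rarg (chr15:102234938-102257522, 16 regions) ran the other way. It had 97.5 and 116 CPM on day 2, 94.1 and 117 on day 3, 65.3 and 67.0 on day 6, 59.8 and 62.3 on day 7, and 47.0 and 48.5 with Gdf11. Days 2 and 3 overlapped, and the later groups were apart and lower. It fell by 0.67 ± 0.11 on the log2 scale from day 3 to day 6 (adjusted p = 2.45e-05). With Gdf11 it was lower than on day 7 by a log2 change of -0.35 ± 0.12 (adjusted p = 0.0366) and than on day 6 by -0.47 ± 0.11 (adjusted p = 0.0213), neither of which passed in DESeq2 (0.0701 and 0.0581). The first was also lost without either day 7 library, the second without either day 6 library, and both without Gdf11 replicate 1. The region at its inner listed start, chr15:102246300-102246638, had 17.7 and 21.2 CPM on day 3 and 9.03 and 11.1 on day 6, a fall of 0.96 ± 0.22 (adjusted p = 0.00106, and 0.0784 without day 6 replicate 1).

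**Figure D4:**
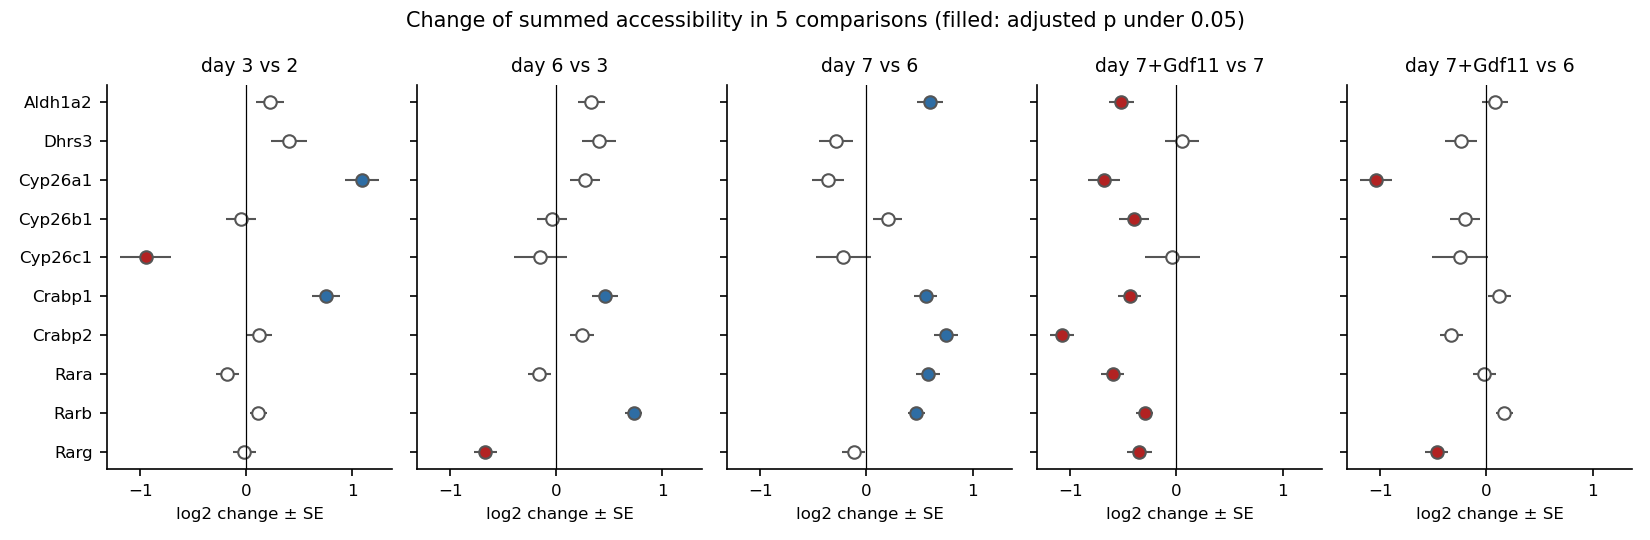
Log2 change of summed accessibility with its standard error for the 10 genes in 5 comparisons; filled points have an edgeR adjusted p under 0.05, blue for higher and red for lower. With Gdf11 8 genes are lower than on day 7, with log2 changes from -0.30 to -1.08, and 2 are lower than on day 6.

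The Gdf11 comparison depends on how libraries are scaled. With scaling by library size alone, in place of TMM factors, 4 of the 10 genes were lower and 0 higher, while over all genes 590 were lower and 981 higher, against 2130 and 392 with TMM, and the all-gene median moved from -0.0987 to 0.0581. The 8 called genes kept negative log2 changes, from -0.14 (Rarb) to -0.91 (Crabp2), and Cyp26c1 went from -0.04 to 0.11. The 4 that stayed called were Aldh1a2, Cyp26a1, Crabp2 and Rara. Without day 7 replicate 2, which had the higher level of the 2 day 7 libraries in 8 of the 10 genes, 3 were called lower: Cyp26a1, Crabp2 and Rara. Compared with day 6, 2 of 10 genes were lower with Gdf11, Cyp26a1 and Rarg, and 0 higher, against 1.9% of all genes called (1.27% lower and 0.633% higher). Both Gdf11 comparisons use the same Gdf11 libraries, and the day 7 libraries serve in 2 comparisons, so a high or low library enters each. The all-gene counts from day 6 to day 7 depend on scaling as well. With library size alone 325 genes were higher (1.71%) and 309 lower (1.63%), against 680 and 129 with TMM, and the median moved from 0.0545 to -0.0465. Aldh1a2, Crabp1, Crabp2, Rara and Rarb were still called higher there.

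Of the 188 regions 150 passed the filter on low counts, of which 8 overlapped a promoter window and 142 did not. Of the 150, 22 rose and 5 fell at day 3, against 13.2% of all regions called (8.82% higher and 4.35% lower). At day 6 22 rose and 10 fell, against 15.2% (9.19% and 6.05%), and at day 7 8 rose and 1 fell, against 1.18% (0.974% and 0.207%). With Gdf11 2 were higher and 14 lower than on day 7, against 3.73% (1.09% and 2.65%), and 3 higher and 4 lower than on day 6, against 2.4% (1.06% and 1.34%). The 38 regions that did not pass had means of at most 0.833 CPM. The 8 regions at promoter windows had 1 call at day 3 (Rarb, higher), 2 at day 6 (Rara and Rarg, lower), 1 at day 7 (Cyp26a1, lower) and 0 with Gdf11. Crabp2 had no entry among the windows.

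The other genes of the pathway were taken as lists. Of 34 genes of retinol uptake, storage and oxidation, retinoid X receptors and cofactors, 5 rose and 8 fell at day 3, against 12.2% and 10.4% of all genes, and 7 rose and 1 fell at day 6, against 9.45% and 10.8%. At day 7 3 rose, against 3.58%. Without day 2 replicate 1 there were 3 higher and 3 lower at day 3, and without day 3 replicate 1 or day 6 replicate 1 3 higher and 1 lower at day 6. With Gdf11 6 were lower than on day 7, against 11.2% of all genes, with a median log2 change of -0.18, and 1 was lower than on day 6, against 1.27%. Among the 6 were Stra6, the retinol uptake receptor (-0.66 ± 0.13, adjusted p = 0.000582), and Rxra, a retinoid X receptor (-0.45 ± 0.12, adjusted p = 0.00784). With library size scaling the 6 came to 1, without either day 7 library or inside gene spans only to 3, and without Gdf11 replicate 1 to 2. The 3 that rose at day 7 came to 0 without day 6 replicate 2 or day 7 replicate 2, to 1 without day 6 replicate 1, and to 7 higher and 2 lower with the 2 groups fitted alone. Adh1, an alcohol dehydrogenase that can oxidise retinol, rose at day 3 by 1.57 ± 0.22 (adjusted p = 2.77e-06), and was lower with Gdf11 than on day 6 by a log2 change of -1.16 ± 0.18 (adjusted p = 0.000265).

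Of 24 genes known to respond to retinoic acid, 8 rose and 2 fell at day 3 (12.2% and 10.4% of all genes), 7 rose and 2 fell at day 6 (9.45% and 10.8%), and 7 rose at day 7 (3.58%). The first included Hoxa4 (2.59 ± 0.19, adjusted p = 8.79e-13) and Hoxb4 (2.1 ± 0.15, adjusted p = 6.19e-13), both transcription factors. With Gdf11 17 of the 24 were lower than on day 7 and 0 higher (11.2% and 2.07% of all genes), with a median log2 change of -0.48 beside -0.0987 over all genes. They included Hoxa3 (-0.66 ± 0.09, adjusted p = 4.55e-06), Irx3 (-0.70 ± 0.10) and Meis2 (-0.48 ± 0.07), all transcription factors. Without day 7 replicate 2 the count was 13 lower, with library size scaling 12 lower and 0 higher, and inside gene spans only 11 lower. With that scaling 4 rose and 1 fell at day 7, while the 7 that rose with TMM came to 1 without day 7 replicate 2, to 3 without day 6 replicate 1 and to 4 without day 6 replicate 2. With the 2 groups fitted alone 12 rose and 1 fell. Of 9 genes of Fgf and Wnt signalling, caudal epiblast and early mesoderm that retinoic acid is known to restrain, 4 rose and 1 fell at day 3, 1 rose and 5 fell at day 6, 1 rose at day 7, and 2 were lower with Gdf11 (1 with library size scaling, within 10 kb or inside spans, and without day 7 replicate 2 or Gdf11 replicate 1). The 6 calls at day 6 came to 2 without day 6 replicate 1 and to 1 inside gene spans only, and the 5 at day 3 to 3 inside spans. The shares of all genes at each step are those given above for the response genes. Fgf8, the growth factor of the caudal epiblast, rose at day 3 by 1.51 ± 0.16 (adjusted p = 9.25e-09) and fell at day 6 by 0.84 ± 0.15 (adjusted p = 0.000107).

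Markers of cell types moved too, but the marker lists share genes with the lists above. Pax6, Olig2 and Irx3 are both response genes and spinal cord markers, and Cdx1 is both a response gene and a neuromesodermal marker. Of the restrained genes, Fgf8, Wnt3a, T, Cdx2 and Nkx1-2 are also neuromesodermal markers and Tbx6 is a paraxial one. The counts of these lists are therefore not separate. All 7 spinal cord neural progenitor markers were lower with Gdf11 than on day 7, and their summed level was 674 to 765 CPM with Gdf11 against 1110 to 1190 on day 7. Of 9 neuromesodermal progenitor markers 6 were lower (425 to 440 against 578 to 648 CPM), and of 7 paraxial mesoderm markers 3 (183 to 184 against 242 to 264 CPM). Of 6 endoderm markers 1 was lower, of 7 feeder fibroblast markers 1 was higher and 1 lower, of 8 pluripotency markers 1 was higher, and of 4 neural crest markers 0 changed. Over all genes tested 11.2% were lower and 2.07% higher (3.11% and 5.17% with library size scaling). A count of 1 in lists this short does not set them apart from that share. With library size scaling all 7 spinal cord markers were still lower, as they were without any 1 of the 4 libraries, while the neuromesodermal count was 3, the paraxial count 1, and 1 neural crest, 1 endoderm, 2 feeder fibroblast and 2 pluripotency markers were higher. Without day 7 replicate 2 the neuromesodermal count was 3 and the paraxial count 1, and 0 feeder fibroblast and 0 pluripotency markers changed. From day 3 to day 6 5 spinal cord and 3 feeder fibroblast markers rose and 0 fell, 6 pluripotency markers fell and 0 rose, and of the neuromesodermal markers 1 rose and 5 fell. Of the endoderm markers 1 rose and 2 fell, 1 paraxial marker rose and 1 neural crest marker fell. Over all genes 9.45% rose and 10.8% fell at that step. From day 6 to day 7, beside the spinal cord markers, 2 neuromesodermal, 1 paraxial and 1 neural crest marker rose, and 1 endoderm and 1 neural crest marker fell. The shares of all genes there were 3.58% higher and 0.68% lower. Every marker had at least 1 region, and none of these summed levels was at 0. In bulk samples fewer cells of a type and less open chromatin per cell cannot be told apart, and the part of these markers in the differences of the 10 genes was not tested.

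The motif tables deposited with the series list receptor motifs by pair of groups, as tables named up and down whose target regions are not described. In the authors' deposited table named up for days 2 and 3, the DR5 motif of RAR:RXR was in 1.76% of target and 0.51% of background sequences. The authors' deposited table named up for days 3 and 6 gave it 1.71% and 0.52%, and that for days 6 and 7 2.07% and 0.88%. The authors' deposited table named down for day 7 with and without Gdf11 gave it 1.93% and 0.75%, on 56 target sequences, and the one named up gave 1.53% and 0.66%, on 8. In the authors' other deposited tables named down it was in 0.75% and 0.58% for days 2 and 3, and in 1.07% and 0.64% for days 3 and 6. For days 6 and 7 it was in 0% and 0.74%, in a table of only 154 target sequences. In the authors' deposited down table for day 7 with and without Gdf11, RXR with DR1 spacing was in 46.0% of targets and 32.43% of background sequences. RARa was in 72.67% and 66.68% there. Of 414 motifs in that table RXR ranked 25, RARa 75 and DR5 91. Over the pairs in time order, DR5 ranked 74, 77, 92 and 156 in the authors' deposited up tables. RXR ranked 104, 58, 39 and 353 in them. The authors' deposited up tables gave RXR 29.07% and 24.45% for days 2 and 3, 31.36% and 23.48% for days 3 and 6, and 43.99% and 34.37% for days 6 and 7. It was lower in targets in the up table for day 7 with and without Gdf11 (23.14% and 25.65%) and in the other down tables. In the authors' deposited tables of all peaks, the other RAR:RXR motif and RARg had lower percentages in target than in background sequences in each of the 8 tables. In the authors' deposited tables of join peaks named up they were higher in targets for days 6 and 7 (8.51% against 6.08% on 4 target sequences, and 4.26% against 3.18% on 2). For day 7 with and without Gdf11 the authors' deposited join table gave 14.29% against 5.08% on 7 target sequences, and 4.08% against 2.64% on 2.

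**Figure D5:**
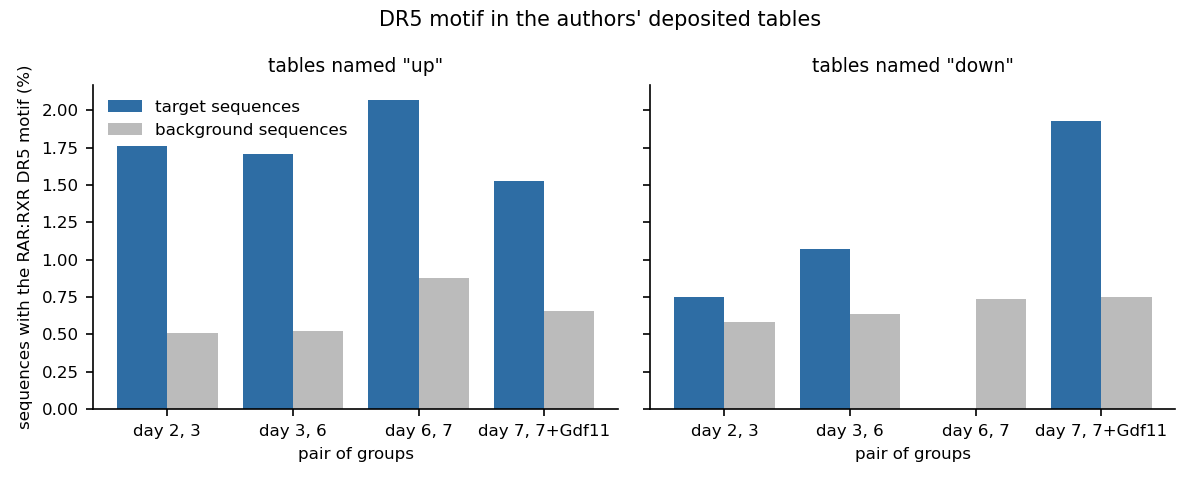
Percent of target and background sequences with the RAR:RXR DR5 motif in the authors' deposited tables of all peaks, for 4 pairs of groups, with bars from 0. The motif is more frequent in targets in all 4 tables named up. Among those named down it is so for days 2 and 3, for days 3 and 6, and for day 7 with and without Gdf11 (1.93%). It is at 0 for days 6 and 7, where the down table has only 154 target sequences.

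For 9 of the 10 genes the closest match among the other tested genes, by Pearson's r of log2 level over the 10 libraries, is given as a description, since the libraries share groups and depth. Rarb was most like Nepro (0.995), Crabp1 like Zfhx4 (0.994), Aldh1a2 like Ate1 (0.99) and Rarg like Rbx1 (0.986). For Cyp26c1 it was Hspa12b (0.964), for Cyp26a1 Gtf3a (0.961), for Rara Actr1a (0.96), for Dhrs3 Cdk10 (0.951) and for Cyp26b1 Cadm1 (0.941).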

How the data were processed

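The 10 ATAC-seq libraries were used as 5 groups of 2. The submitters' processing notes name HISAT2 2.1.0, SAMtools, MACS2 2.1.1.20160309, bedtools, HOMER 4.10 and build mm10, with no role or order, and the counter is not given in the sources used here. The deposited tables hold raw counts per numbered region. In the deposited peak lists each peak has a ratio, its fold enrichment, and the -log10 of its p and q. The deposited motif tables give percents of sequences and an enrichment score, which 25 values recomputed from the same lines show to be a natural log of p (ratios 0.972 to 1.02).

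Regions were the peak lists merged with bedtools 2.31.1 in character order of chromosomes. That gave 246799 regions, and no library had 0 counts in its own peaks, whereas numeric order left 1095 to 9931 such zeros per library, so positions rest on this match. Exons were not used here, so a place is only inside or outside a gene span (RefSeq, GRCm38.p6). Counts, per region or summed per gene, were tested in edgeR 4.0.16 (R 4.3.3) by two-sided quasi-likelihood F tests in 1 fit of all libraries, with filterByExpr, TMM factors (0.905 to 1.084) from the region table and Benjamini-Hochberg adjustment over all 173175 regions or 18968 genes tested. CPM uses TMM-scaled library sizes, and SE is the log2 change over the root of F. With 2 libraries per group, spread was moderated across all features. The scripts were tested on simulated data. Alternatives were DESeq2 1.42.0, library size scaling, filters, a 10 kb window, spans only, the 2 groups alone, a replicate block and leaving out each library.

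All 10 genes are named. Regions named were taken from the one with the highest mean CPM per gene and up to 4 per direction and comparison with the smallest p and no overlap between groups. The regions at promoter windows were added after their values were seen. Not all of these are described, and no stated rule chose among them. Among those left out are the highest-mean regions of Rarg, Cyp26b1 and Cyp26c1. The genes and the 10 lists were chosen with earlier results of these data known. Counting the shared Gm46294 regions for Rara, and the list and marker counts under each alternative, were added after seeing the data. The closest match of Crabp2 and the values of 1 listed gene are not reported here.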

Additional observations from a re-analysis of the deposited data

How the results depend on the processing

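In place of 3, 3, 5, 8 and 2 genes called (days 3 against 2, 6 against 3, 7 against 6, Gdf11 against day 7 and against day 6), other settings gave these counts. Shares of all genes lower and higher in the same setting stand in brackets. A 10 kb window gave 1 lower at day 3 (9.01% and 11.3%) and 1 lower for Gdf11 against day 6 (0.725% and 0.415%). Gene spans only gave 1 lower at day 3 (8.09% and 10.1%). They gave 4 lower for Gdf11 against day 7 (6.45% and 1.21%) and 1 lower against day 6 (0.726% and 0.444%). Library size scaling gave 4 lower for Gdf11 against day 7 (3.11% and 5.17%). DESeq2 gave 1 lower against day 6 (0.643% and 0.432%). Leaving out 1 library gave 2 to 3, 2 to 4, 3 to 5, 3 to 7 and 1 to 2 genes, and a lone library is then assumed to vary like the others. In place of 27, 32, 9, 16 and 7 regions called, DESeq2 gave 15 at day 3, 20 at day 6 and 3 for Gdf11 against day 6, and fitting the 2 groups alone gave 15 at day 7. Leaving out 1 library gave 16 to 24, 20 to 25, 4 to 9, 7 to 15 and 2 to 3 regions. Direction turned for 3 called gene values: Cyp26a1 at day 3 was -0.04 with a 10 kb window, Cyp26a1 with Gdf11 against day 7 was 1.15 inside its span, where only the promoter region remains, and Crabp1 at day 6 was -0.21 inside its span. Values that were not called also changed sign in some settings, among them Cyp26c1 at day 7 (-0.22 to 0.13) and Dhrs3 with Gdf11 against day 7 (0.05 to -0.13) without day 7 replicate 2, and Rara with Gdf11 against day 6 (-0.02 to 0.04) with library size scaling. The causes of the other changes were not tested.

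Replicate numbers are shared by the groups, and the correlation of same-numbered libraries' deviations was 0.013 to 0.132 over 10 pairs of groups, above 0.1 in 1. All were small and positive, and the main fit has no replicate term. In every group replicate 1 had more counts and a lower mitochondrial share than replicate 2. On day 6 the counts were 12335735 and 7403576, and on day 7 the mitochondrial shares were 9.25% and 12.88%. Whether same-numbered libraries share a batch was not tested. With a replicate block 4, 6, 5, 8 and 3 genes and 29, 33, 11, 18 and 8 regions were called. Over all genes the block raised the calls from 4288 to 5475 at day 3 and from 3845 to 4891 at day 6. The calls went from 809 to 1634 at day 7, from 2522 to 3808 for Gdf11 against day 7, and from 360 to 1001 against day 6.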
